A study of Mus musculus with 6 samples.

Results

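The genes described here encode lysosomal glycosidases and the proteins that help to break down lipids in the same compartment: Gla, Glb1, Gusb, Hexa, Neu1, Psap and Npc2. They were chosen by name, and a probe was counted as theirs when its transcript accession on the array belonged to the gene in the mouse RefSeq gene table. This gave 7 probes of the 39429 non-control probes, 1 for each of the 7 genes, and all 7 genes were among the 10948 genes tested. RNA came from bone-marrow-derived macrophages of C57BL/6 mice aged 6 to 8 weeks, labelled as polarized M2 cells, kept for 6 h in complete DMEM with WGP (whole-glucan particles, a particulate beta-glucan) or in complete DMEM alone (medium). Both groups thus share the polarization, and neither the polarizing agent, the dose of WGP nor the number of mice behind a sample is given in the labels. Each group has 3 deposited files, but the raw signals of replicate 3 differed from those of replicate 1 at 0 spots in either group, so replicates 1 and 2 were used (n = 2 arrays per group).

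Lysosomes degrade glycoproteins, glycolipids and other cargo with acid hydrolases, and macrophages, which take up particles and dead cells, depend on them for digestion. The glycosidases remove sugars one at a time from the end of a chain, so that the product of one enzyme is the substrate of the next. Several act on membrane lipids only with a small helper protein that lifts the lipid within reach. Most of the enzymes are sorted to the lysosome by a mannose 6-phosphate tag, which is added in the Golgi and read by dedicated receptors. Inherited loss of single members causes storage diseases, among them Fabry disease (GLA), Tay-Sachs disease (HEXA), sialidosis (NEU1), Sly syndrome (GUSB) and a form of Niemann-Pick disease type C (NPC2) in humans.

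The 4 arrays were 1-colour arrays, and levels are given on a log2 scale relative to the 75th percentile of processed signals on the same array. That percentile was 59.2 and 56.1 signal units on the WGP arrays and 85.8 and 68.6 on the medium arrays, so the choice of scaling bears on every change of the size seen here. With no scaling, the median change over all tested genes was -0.38, against 0.028 with the main scaling and 0.19 with scaling to the array median. The mean change of the 7 spiked-in controls was -0.44 with no scaling and -0.031 with the main scaling. With the main scaling the single controls ranged from -0.17 to 0.15. Between 45.0% and 50.7% of probes were well above background on an array. Markers of macrophages were well above background on all 4 arrays for 9 of 9 genes with a named probe, and of these 1 (Cd14) was called higher and 5 lower, with a median change of -0.47. Their summed linear level was 1934 and 1670 with WGP and 1512 and 1459 in medium, of which Csf1r made up 69.8% to 82.2%, and without Csf1r it was 344 and 357 with WGP and 428 and 440.0 in medium. Of 10 genes listed as markers of alternative (M2) activation, 5 (Arg1, Retnla, Irf4, Ccl17 and Ccl22) were well above background on no array, and 2 of 5 measured were called lower. That list's summed level was 64.8 and 64.4 with WGP and 99.6 and 77.9 in medium, of which Mgl2 made up 73.4% to 89.9%. Summed B cell markers were 0.332 and 0.348 with WGP and 0.999 and 0.804 in medium, with 4 of 6 above background on no array. Summed dendritic cell markers were 202 and 214 with WGP and 121 and 80.3 in medium, of which Siglech alone made up 99.4% or more on every array, and Flt3, Xcr1 and Cd209a were above background on no array. All 6 mast cell markers were above background on no array. The part of these shifts in the results below was not tested, and in bulk RNA fewer cells of a type and less RNA per cell cannot be told apart.

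Differences in expression of the 7 genes between WGP and medium were small and went in both directions. Gla, the alpha-galactosidase that removes terminal galactose from globotriaosylceramide, was 1.29-fold higher (with no scaling between arrays its change was -0.043), and Hexa, the alpha subunit of beta-hexosaminidase A, was 1.29-fold lower. Psap, Npc2, Neu1, Gusb and Glb1 did not pass the test. The count of 2 of 7 called compares with 40.6% of all tested genes, with 23.2% of genes called higher and 17.4% called lower. The median change of the 7 genes was 0.19, against 0.028 over all tested genes. The groups did not overlap for 6 of 7 genes, against 75.1% of all tested genes. With the slide as a block limma called 0 of 7, against 37.3% of all tested genes, and 2 of 7 had an unadjusted p under 0.05. With scaling to the spiked-in controls it called 0 of 7, against 38.4%, with 4 of 7 at an unadjusted p under 0.05, and with scaling to the array median 2 of 7 (Gla and Psap), against 40.1%.

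**Figure D1:**
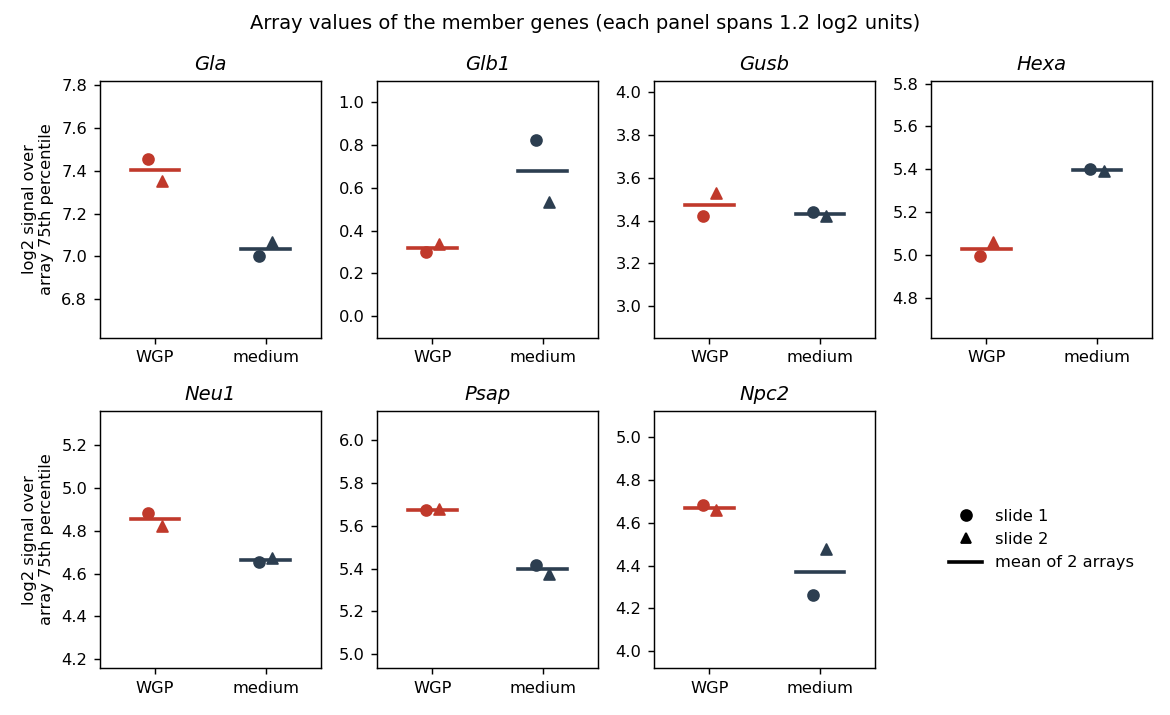
Levels of the 7 genes on each array, as log2 processed signal relative to the 75th percentile of its array, with the WGP arrays left of the medium arrays in each panel and the axis of each panel spanning the same range of log2 units. Points are single arrays and bars are group means (n = 2). The WGP arrays lie above the medium arrays for Gla, Neu1, Psap and Npc2 and below them for Glb1 and Hexa, and the groups overlap for Gusb. With no scaling between arrays Gla, Neu1, Psap and Npc2 were lower with WGP, as was the mean of the spiked-in controls (-0.44).

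The 5′ regions of the genes were read from RefSeq promoter windows (mouse build GRCm38.p6, 250 bases before to 50 bases after the annotated start), because many lysosomal genes are known to carry the E-box type element bound by the factor TFEB. The search used CACGTG, its extension TCACGTGA and a longest motif, which extends TCACGTGA by a further base at each end. Each is its own reverse complement, so 1 search covers both strands, and each shorter motif lies within the longer ones. CACGTG was found in 10.1% of the 11237 windows of tested genes and in 7.15% of all 32851 windows, and TCACGTGA in 1.88% and 0.974%. The longest motif was found in 0.712% and 0.326%. All 7 genes had a window in this set, with 8 windows (2 for Psap). Gla held 2 CACGTG sites, 227 and 194 bases before the start and both within TCACGTGA. Glb1 held 1 site, 48 bases before the start. The longest motif was found in 0 of the 7 genes. CACGTG was not found in the windows of Hexa, Gusb, Neu1, Psap and Npc2. The windows of Gla and Glb1, which hold the motif, and of Hexa, called but without it, are printed 5′ to 3′ on the gene's strand, with CACGTG in capitals.
Gla, chrX:134600956-134601255, minus strand: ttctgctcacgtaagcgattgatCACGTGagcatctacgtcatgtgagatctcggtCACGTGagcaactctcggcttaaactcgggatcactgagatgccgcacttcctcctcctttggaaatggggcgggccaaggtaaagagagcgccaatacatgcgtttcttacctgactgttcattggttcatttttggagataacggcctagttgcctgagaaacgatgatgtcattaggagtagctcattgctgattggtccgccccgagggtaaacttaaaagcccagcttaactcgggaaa
Glb1, chr9:114400828-114401127, plus strand: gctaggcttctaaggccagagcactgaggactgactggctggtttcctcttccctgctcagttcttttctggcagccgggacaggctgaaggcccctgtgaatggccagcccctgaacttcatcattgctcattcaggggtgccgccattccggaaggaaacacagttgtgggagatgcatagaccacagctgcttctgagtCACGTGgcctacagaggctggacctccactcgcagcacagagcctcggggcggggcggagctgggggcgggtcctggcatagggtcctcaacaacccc
Hexa, chr9:59539290-59539589, plus strand: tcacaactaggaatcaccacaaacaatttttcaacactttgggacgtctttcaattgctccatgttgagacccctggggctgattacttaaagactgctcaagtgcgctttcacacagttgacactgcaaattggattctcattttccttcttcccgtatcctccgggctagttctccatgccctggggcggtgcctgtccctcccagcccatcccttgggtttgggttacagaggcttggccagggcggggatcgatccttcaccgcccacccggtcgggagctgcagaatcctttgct
Among the other genes of the lysosomal lists described later, 11 of 41 with a window held CACGTG. Of these 41 genes, 4 held TCACGTGA and 1 held the longest motif. These matches are descriptions of the sequence and were not set against binding data.

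Gla had levels of 7.46 and 7.35 on the WGP arrays, against 7.002 and 7.07 on the medium arrays. Both WGP arrays were above both medium arrays, with differences of 0.45 on slide 1 and 0.29 on slide 2. Gla averaged 7.40 ± 0.074 with WGP and 7.03 ± 0.046 in medium (SD, n = 2 each), a change of 0.37 ± 0.10 (SE, log2; adjusted p = 0.0487 by limma with Benjamini-Hochberg adjustment). The 95% interval of the change was 0.096 to 0.64. In the size of its change Gla stood at the 46.3rd percentile of all tested genes. The call was lost without any 1 of the 4 arrays (adjusted p = 0.223 without WGP replicate 1, 0.138 without WGP replicate 2, 0.125 without medium replicate 1 and 0.100 without medium replicate 2) and with the slide as a block (adjusted p = 0.0821). It was also lost with normexp and the 75th percentile (change of 0.11, adjusted p = 0.324), with quantile normalization (change of 0.29, adjusted p = 0.0921) and with scaling to the spiked-in controls (change of 0.40, adjusted p = 0.0609).

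Hexa encodes the alpha subunit of beta-hexosaminidase A, which removes N-acetylgalactosamine from the ganglioside stored in Tay-Sachs disease. Its levels were 4.997 and 5.06 on the WGP arrays, against 5.40 and 5.39 on the medium arrays. Both WGP arrays were below both medium arrays, by 0.41 on slide 1 and 0.33 on slide 2. Hexa averaged 5.03 ± 0.044 with WGP and 5.40 ± 0.0079 in medium (SD, n = 2 each), a change of -0.37 ± 0.094 (SE, log2; limma adjusted p = 0.0412, 95% interval -0.62 to -0.11). The direction was the same in all 17 alternative settings, but many of them could not turn it. With the other filters, the other probe rule or the slide as a block the change was -0.37 by construction. Leaving out 1 array could not turn a gene whose groups do not overlap. No scaling moves every change by -0.41 and so could not turn a negative one. The call was lost without any 1 of the 4 arrays (adjusted p = 0.197 without WGP replicate 1, 0.147 without WGP replicate 2, 0.0993 without medium replicate 1 and 0.101 without medium replicate 2) and with the slide as a block (adjusted p = 0.0723). With scaling to the array median the change was -0.20 (adjusted p = 0.294), and with scaling to the spiked-in controls it was -0.34 (adjusted p = 0.0830).

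Glb1, the beta-galactosidase that acts on the ganglioside upstream of hexosaminidase, had levels of 0.30 and 0.34 on the WGP arrays, against 0.83 and 0.53 on the medium arrays. The groups did not overlap, and the medium arrays lay further apart than the WGP arrays. Glb1 averaged 0.32 ± 0.025 with WGP and 0.68 ± 0.21 in medium (SD, n = 2 each), a difference of -0.36 ± 0.14 (SE, log2; limma adjusted p = 0.106). Its 95% interval of -0.73 to 0.014 included 0. The difference was -0.21 without medium replicate 1, -0.50 without medium replicate 2 and -0.19 with scaling to the array median. Within slides it was -0.52 on slide 1 and -0.19 on slide 2. Its processed signals were 73.0 and 70.9 signal units with WGP and 152 and 99.2 in medium, and the probe was well above background on all 4 arrays, as were those of the other 6 genes.

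Neu1, the sialidase that removes terminal sialic acid, had levels of 4.89 and 4.82 on the WGP arrays, against 4.65 and 4.67 on the medium arrays. The groups did not overlap, but the difference of 0.19 ± 0.094 (SE, log2) did not pass the test (limma adjusted p = 0.173, 95% interval -0.064 to 0.45). Gusb, the beta-glucuronidase that acts on glycosaminoglycans, had levels of 3.42 and 3.53 on the WGP arrays, against 3.44 and 3.42 on the medium arrays. It was the only one of the 7 genes whose groups overlapped. Its difference was 0.043 ± 0.098 (SE, log2; limma adjusted p = 0.748), with a 95% interval of -0.23 to 0.31. The sign for Gusb depended on the scaling, with -0.15 after quantile normalization and -0.37 with no scaling.

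Gusb was printed 10 times on the array, while each of the others had 1 spot, so its probe shows the error of a single spot. The 10 spots spanned 3.35 to 3.47 and 3.33 to 3.73 on WGP arrays 1 and 2, against 3.34 to 3.50 and 3.26 to 3.60 on medium arrays 1 and 2. The SD between the spots was 0.037 and 0.11 with WGP and 0.057 and 0.091 in medium. For probes printed 10 times with every spot above background (170 to 197 per array, of 399), the median SD between spots was 0.096 and 0.11 on the WGP arrays and 0.11 and 0.14 on the medium arrays. This spread is between spots of 1 array and holds no variation between arrays.

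**Figure D2:**
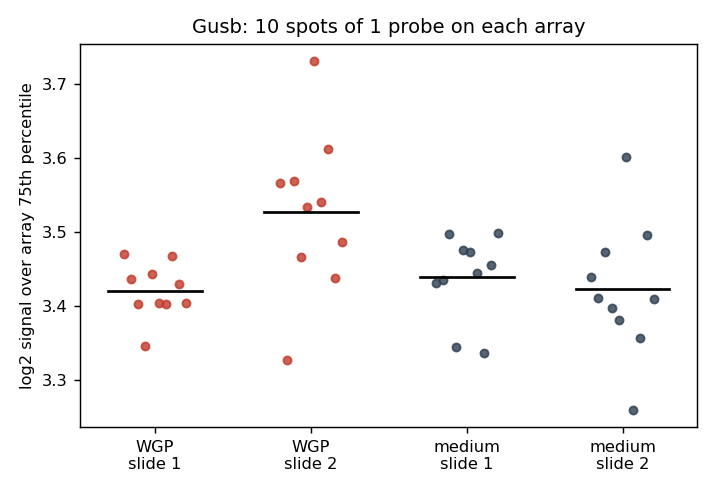
The 10 spots of the Gusb probe on each array, as log2 processed signal relative to the 75th percentile of its array, WGP arrays first. Small points are single spots and bars are their means. The ranges of the spots overlap between all 4 arrays, and the spread is widest on WGP replicate 2.

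Psap encodes the precursor of the saposins, which present glycolipids to the hydrolases. Its levels were 5.67 and 5.68 on the WGP arrays, against 5.42 and 5.38 on the medium arrays. Psap averaged 5.67 ± 0.0029 with WGP and 5.40 ± 0.030 in medium (SD, n = 2 each), a difference of 0.28 ± 0.092 (SE, log2; limma adjusted p = 0.0783, 95% interval 0.026 to 0.53). The groups did not overlap, and the difference was 0.25 on slide 1 and 0.30 on slide 2. With scaling to the array median, which lifts the median of all genes to 0.19, it was 0.44 (adjusted p = 0.0491), while quantile normalization gave 0.074 (adjusted p = 0.544) and normexp with the 75th percentile 0.079 (adjusted p = 0.497). Npc2, which binds cholesterol in the lysosome and hands it to Npc1, had levels of 4.68 and 4.66 on the WGP arrays, against 4.27 and 4.48 on the medium arrays. The groups did not overlap, and the difference of 0.30 ± 0.12 (SE, log2) did not pass the test (limma adjusted p = 0.112, 95% interval -0.020 to 0.62). The medium arrays differed by more than the WGP arrays did, and the difference was 0.42 on slide 1 and 0.18 on slide 2. Npc2 was at 0.14 with quantile normalization and at 0.077 with normexp and the 75th percentile, and Neu1 at 0.021 and 0.015. With no scaling, Psap was at -0.14, Npc2 at -0.11 and Neu1 at -0.22.

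**Figure D3:**
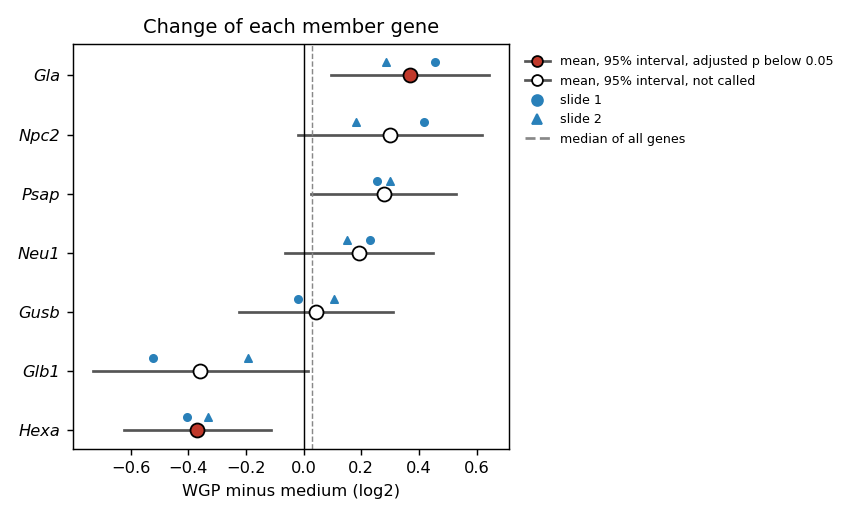
Change of each gene with WGP relative to medium (log2), with its 95% interval from limma and the difference within each slide. The intervals of Gla and Psap lie above 0, that of Hexa lies below 0, and those of Glb1, Neu1, Npc2 and Gusb include 0. With no scaling the changes of Gla, Psap, Neu1, Npc2 and Gusb were negative, as was that of the spiked-in controls (-0.44).

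A fit over all 18443 probes that passed the filter, of which 34.2% were called, gave the same changes with larger adjusted p-values. None of the 7 probes passed in it, with adjusted p = 0.0558 for Hexa, 0.0638 for Gla, 0.101 for Psap, 0.126 for Glb1, 0.135 for Npc2, 0.209 for Neu1 and 0.771 for Gusb. At an unadjusted p under 0.05, 3 of the 7 passed in that fit (Gla, Psap and Hexa).

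Ratios between 2 genes on the same array do not depend on a single scaling factor per array, and only their difference between groups is read here. Quantile normalization and normexp can move them. With quantile normalization the changes of Glb1 and Hexa were -0.38 and -0.55, against -0.36 and -0.37 in the main setting. The log2 ratio of Gla over Hexa was 2.46 and 2.29 on the WGP arrays, against 1.60 and 1.68 on the medium arrays. It was higher on both WGP arrays, by 0.74 on average, with 0.86 on slide 1 and 0.62 on slide 2. The log2 ratio of Hexa over Psap was -0.68 and -0.62 on the WGP arrays, against -0.016 and 0.015 on the medium arrays, a difference of -0.65 with -0.66 and -0.63 on the slides. Gusb over Hexa differed by 0.41, with 0.39 on slide 1 and 0.44 on slide 2. Glb1 over Hexa differed by 0.011 and Psap over Npc2 by -0.023, and the groups overlapped for both. The groups did not overlap for 16 of the 21 pairs, against 74.9% of all pairs of tested genes, a share near the background, and no test was made on the ratios.

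Known partners of Neu1, Glb1 and Npc2 were set beside them, outside the rule for named genes. Ctsa, the protective protein that holds Neu1 and Glb1 in a complex, was 1.67-fold higher (limma adjusted p = 0.0105), with an adjusted p of 0.0597 without WGP replicate 1. Its second probe gave 0.17 (adjusted p = 0.627). The difference of Neu1 was 0.54 below that of Ctsa, with -0.61 on slide 1 and -0.48 on slide 2. Npc1, the membrane partner of Npc2, was 1.68-fold higher, and the difference of Npc2 minus that of Npc1 was -0.27 on slide 1 and -0.62 on slide 2. These differences between partners were not tested.

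Over the 4 arrays, the genes of the lysosomal lists nearest in profile were found among 60 candidates, by the Euclidean distance between profiles centred on their own means (log2 units). Of the 2 nearest genes of each, those reported here are named. Hexa lay near Manba (0.059). Glb1 lay nearest to Man2b1 (0.044) and Scarb2 (0.15). Gla lay near Npc2 (0.14), and Npc2 near Sumf2 (0.10). Psap lay nearest to Ap1s1 (0.068), Neu1 to Ap1s1 (0.070) and Sumf1 (0.099), and Gusb to Gnptg (0.056) and Arsa (0.11).

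The lists around these genes held larger changes in both directions. Without the 7 genes, 54 of 56 listed genes were measured, of which 15 were called higher and 12 lower, with 23.2% and 17.4% as the shares over all tested genes. Their median change was -0.053. With the slide as a block, 13 were called higher and 9 lower.

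The largest changes of single genes were among the 13 genes that tag and carry lysosomal enzymes. Of these 13, 5 were called higher and 1 lower, with a median of 0.16. Over all tested genes 23.2% were called higher and 17.4% lower, 40.6% in either direction. These shares also stand beside the main counts of the 4 lists below, and no list was tested as a set. With normexp 5 were called higher and 3 lower, and with no scaling 3 and 2. Gnptab, the transferase subunit that starts the mannose 6-phosphate tag, had levels of 2.73 and 2.58 with WGP and 0.89 and 0.78 in medium, 3.53-fold higher (limma adjusted p = 0.00218). Igf2r, the large receptor for the tag, had levels of 2.14 and 2.13 with WGP and 0.58 and 0.72 in medium, 2.80-fold higher (adjusted p = 0.00263). M6pr, the small receptor, had levels of 4.06 and 4.11 with WGP and 2.76 and 2.69 in medium, 2.57-fold higher (adjusted p = 0.00268). A second M6pr probe gave a change of 1.28, against 1.36 for the first. Ap1b1, a subunit of the clathrin adaptor that packs these receptors, had levels of 3.67 and 3.70 with WGP and 5.31 and 4.96 in medium, 2.73-fold lower (adjusted p = 0.00558). These 4 changes, all outside the range between the 5th percentile (-1.26) and the 95th (1.31) of all tested genes, passed the test without any 1 of the arrays.

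**Figure D4:**
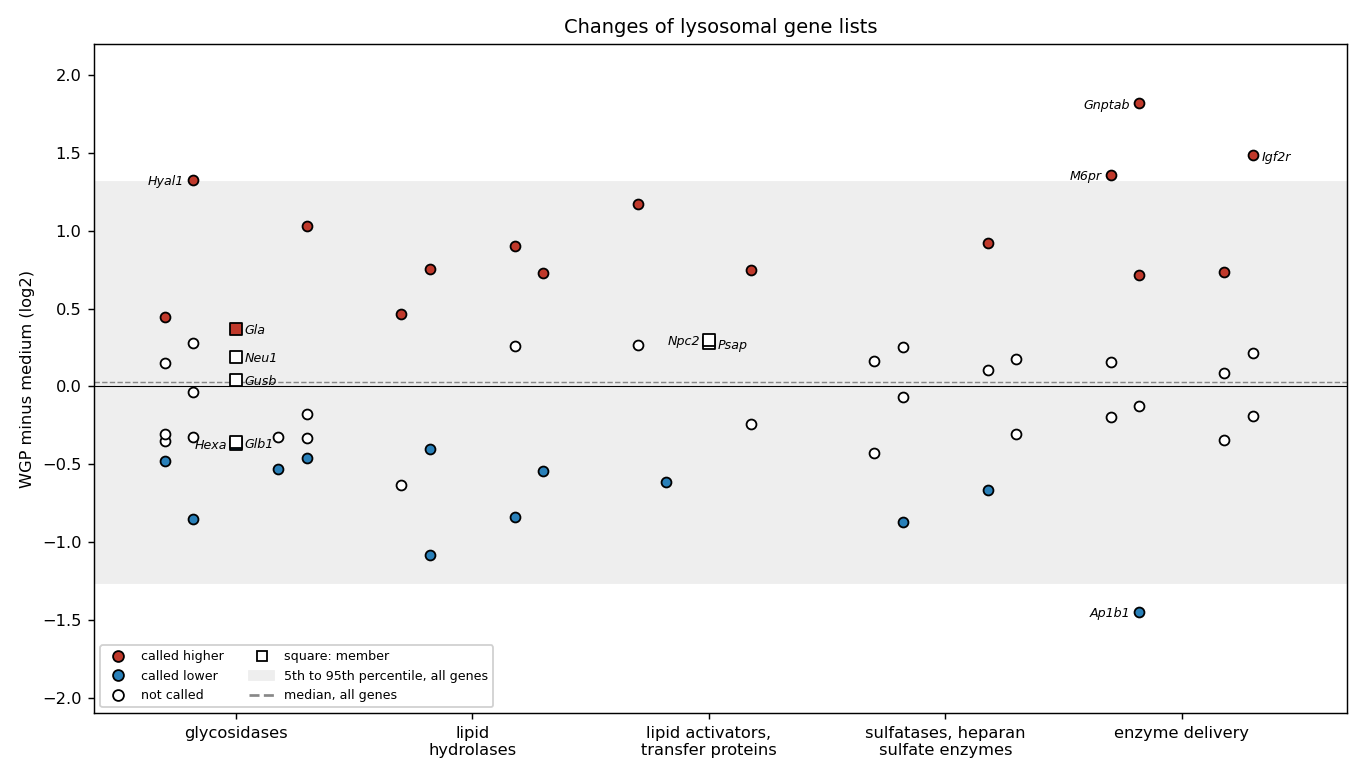
Change with WGP relative to medium (log2) of every measured gene of the 5 lysosomal lists, with squares for the 7 genes of this report, filled symbols for called genes and the 5th to 95th percentile of all tested genes shaded; names mark the 7 genes and genes outside that range. The squares lie between -0.37 and 0.37, inside the spread of their own lists, and Gnptab, Igf2r, M6pr and Hyal1 lie above the shaded range and Ap1b1 below it. With no scaling Gla, Psap, Npc2, Neu1 and Gusb were below 0, as was the mean of the spiked-in controls (-0.44).

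Of 21 measured glycosidases out of 22 listed (Galc was below the filter), 4 were called higher and 5 lower, with a median of -0.30. With the slide as a block, 2 were called higher and 3 lower, and the balance moved with the processing, with 4 higher and 1 lower after scaling to the array median, 4 and 10 after normexp and quantile normalization, and 1 and 11 with no scaling. The hyaluronidase Hyal2 was 2.05-fold higher (limma adjusted p = 0.00428), with levels of 4.47 and 4.45 with WGP and 3.39 and 3.47 in medium. Hyal1 was 2.51-fold higher (adjusted p = 0.00301), and its probe was above background on 1 of 2 medium arrays. With normexp and the 75th percentile the change of Hyal1 was 0.42, against 1.33 in the main setting. Normexp was run with an offset of 50 signal units, which weighs most on dim probes. Its part in the changes after normexp, here and below, was not tested. Brighter probes moved too, with Hyal2 at 0.83 against 1.03 and Hexa at -0.54 against -0.37 (normexp and the 75th percentile against the main setting). The calls of Hyal1 and Hyal2 both held without any 1 of the arrays. Gaa, the acid alpha-glucosidase, was 1.36-fold higher (adjusted p = 0.0313), with 0.0717 to 0.157 when any 1 of the 4 arrays was left out and a change of 0.17 (not called) at its second probe. Its call was also lost with the slide as a block (adjusted p = 0.0569), after normexp (0.26, adjusted p = 0.0700) and after quantile normalization (0.27, adjusted p = 0.100). Engase, a cytosolic glycosidase that trims free N-glycans, was 1.80-fold lower (adjusted p = 0.0124, and 0.0580 without WGP replicate 1). Fuca1, the alpha-fucosidase, was 1.44-fold lower at 1 probe (adjusted p = 0.0172), while its second gave 0.058. Without WGP replicate 1, WGP replicate 2 or medium replicate 2 the adjusted p for Fuca1 was 0.0853, 0.0964 or 0.0603, and with scaling to the array median it was 0.0865.

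Of 10 measured lipid hydrolases out of 11 listed (Smpdl3b was below the filter), 4 were called higher and 4 lower, with a median of -0.073. With the slide as a block, 3 were called higher and 2 lower, after scaling to the array median 4 and 1, and with no scaling 0 and 5. Lipa, the acid lipase that splits cholesteryl esters ahead of Npc2 and Npc1, was 1.66-fold higher (limma adjusted p = 0.0175), with 0.0623 and 0.0793 without WGP replicates 1 and 2. Smpdl3a, a phosphodiesterase related to acid sphingomyelinase, was 1.87-fold higher (adjusted p = 0.00595), and Acp2, a lysosomal acid phosphatase, was 1.69-fold higher (adjusted p = 0.0122, and 0.0634 without WGP replicate 1), with a change of 0.42 after normexp against 0.75. Ppt1, which removes fatty acids from proteins, was 2.12-fold lower (adjusted p = 0.00795). The calls of Smpdl3a and Ppt1 held without any 1 of the arrays. Naaa, which cleaves N-acylethanolamines, was 1.79-fold lower (adjusted p = 0.0202), with 0.0791 and 0.0685 without WGP replicates 1 and 2. Its change of -0.84 was -0.14 with normexp and the 75th percentile (adjusted p = 0.241), and scaling to the array median also ended the call (adjusted p = 0.0509). Pla2g15, the lysosomal phospholipase A2, was 1.45-fold lower (adjusted p = 0.0307), with 0.0587 to 0.137 when any 1 of the 4 arrays was left out, 0.0547 with the slide as a block, 0.103 after scaling to the array median and 0.0513 after scaling to the spiked-in controls.

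Among the 7 activators and transfer proteins, Psap and Npc2 included, 2 were called higher and 1 lower, with a median of 0.28, and after scaling to the array median 4 were called higher and 0 lower. Npc1 was higher with levels of 2.02 and 2.08 with WGP and 1.33 and 1.27 in medium (limma adjusted p = 0.00839, and 0.0525 without WGP replicate 2), with a change of 0.40 after normexp against 0.75. Gm2a, the activator that Hexa needs for its ganglioside substrate, was 1.53-fold lower (adjusted p = 0.0334), with levels of -0.072 and -0.38 with WGP and 0.35 and 0.43 in medium. Without WGP replicate 2, medium replicate 1 or medium replicate 2 its adjusted p was 0.121, 0.0855 or 0.116. The call was also lost after scaling to the array median (adjusted p = 0.0655) and with normexp (change of -0.25 against -0.61, adjusted p = 0.0729).

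Of the 10 sulfatases and heparan sulfate enzymes, 1 was called higher and 2 lower, with a median of 0.018. Sgsh, the sulfamidase, was not called at its brighter probe (0.17), while its second probe gave -1.98 (adjusted p = 0.00836 in the fit over probes), and with the mean of a gene's probes 3 genes of the list were called lower. Galns, the sulfatase that acts with Glb1 on keratan sulfate, was 1.90-fold higher (limma adjusted p = 0.00572) and passed without any 1 of the arrays. Ids, the iduronate sulfatase, was 1.83-fold lower (adjusted p = 0.0145), with 0.0582 and 0.0617 without WGP replicates 1 and 2. Arsg was 1.58-fold lower (adjusted p = 0.0142), with 0.0745 without WGP replicate 2, 0.0525 without medium replicate 1 and 0.0532 without medium replicate 2. With normexp and the 75th percentile the change of Ids was -0.41 against -0.87, and that of Arsg -0.28 against -0.66.

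**Figure D5:**
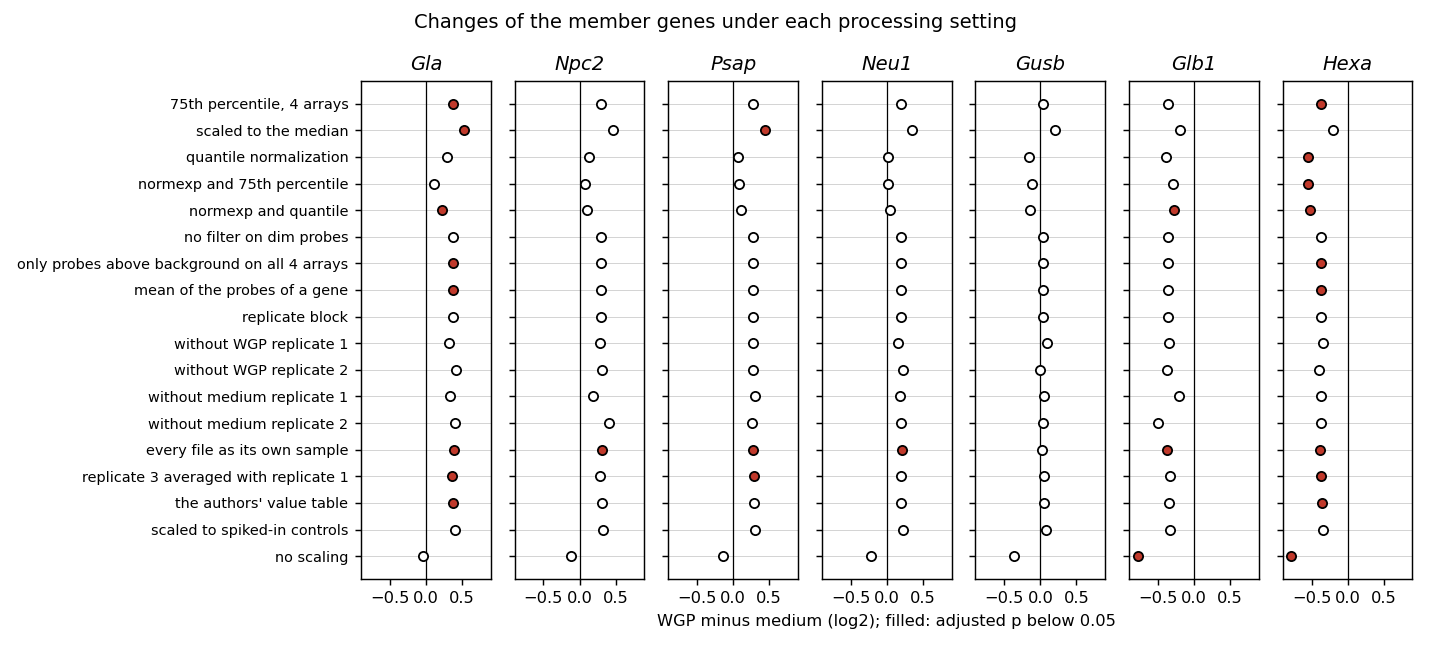
Change of each of the 7 genes (log2, WGP relative to medium) under the main setting and the 17 alternatives, with filled points for settings in which the gene was called. Hexa and Glb1 lie below 0 in all settings, Gla, Neu1, Psap and Npc2 lie above 0 in all but the setting with no scaling, and Gusb lies on both sides. The setting with no scaling moves every change by -0.41 relative to the main setting.

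Across these 17 alternatives Hexa was called in 9, Gla in 7, Glb1 and Psap in 3 each, Neu1 and Npc2 in 1 each and Gusb in 0 (limma adjusted p of 0.748 in the main setting). None of the 7 was called when 1 array was left out, and 0 to 4 of them had an unadjusted p under 0.05 in those fits. Treating all 3 deposited files of a group as separate samples called 6 of the 7 genes, with limma adjusted p = 0.00779 for Glb1, 0.00376 for Neu1, 0.000721 for Psap and 0.00585 for Npc2. That setting counts the signals of replicate 1 again as replicate 3.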

How the data were processed

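Total RNA was amplified to Cy3-labelled cRNA for 1-colour Agilent arrays, per the labels' protocols. The authors deposited intensities per spot, and the submitters' processing notes name Agilent Feature Extraction 10.7.3. Its processed signal is corrected for background and spatial trend but not normalized between arrays, per the file headers. The authors also deposited a table of log2 values, used as an alternative.

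Replicate 3 was left out because its raw signals repeat replicate 1. Its processed signal lay within 0.695% of the mean of replicates 1 and 2 in medium and within 0.498% of 1.3 times replicate 1 with WGP. Spots marked as controls (1377) or as outliers (118 to 183 on each array) were dropped, and none was saturated (0). Processed signals were put on a log2 scale relative to the 75th percentile of their array and averaged per probe. A probe was kept if both arrays of either group measured it well above background (18443), and the brightest named probe stood for a gene. RefSeq transcript accessions named 26761 of 39429 probes.

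WGP was set against medium over 10948 genes with lmFit and eBayes of limma 3.58.1 (R 4.3.3), with Benjamini-Hochberg adjustment and a threshold of 0.05; figures and joins used Python 3.11.15. The fit had 2 residual and 2.19 prior degrees of freedom, and was tested on simulated data. Nothing says that replicates came from separate cultures or animals, so p-values measure the spread between these arrays, which may be technical, and their number limits the precision. Replicate numbers 1 and 2 were also slides, per the file headers, so the slide was tried as a block. The deviations of arrays with the same number correlated at 0.14 over 2 pairs. Both WGP arrays were at position 3 of their slide and both medium arrays at position 1, per the file headers. Position on the slide thus cannot be told apart from treatment, and the slide block does not remove it. Other alternatives were scaling, quantile normalization, normexp (offset 50, on the median signals, since no mean signal was in the files used here), the filter, the probe rule, leaving out each array and the use of replicate 3. Scaling to 7 spiked-in controls and no scaling were added after seeing the data.

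The 7 genes and all lists were chosen with earlier results of these data known. Named genes were the 7 members and, per list, up to 3 called higher and up to 3 called lower with the largest changes. Some listed genes are counted but not reported by name here.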

Additional observations from a re-analysis of the deposited data

How the results depend on the processing

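Of the 7 genes, Gla and Hexa lost their calls with no filter on dim probes (0.37, adjusted p = 0.208, and -0.37, adjusted p = 0.193), with the replicate block (0.37, adjusted p = 0.0821, and -0.37, adjusted p = 0.0723) and with scaling to the spiked-in controls (0.40 and -0.34). Gla also lost its call with quantile normalization (0.29) and with normexp and the 75th percentile (0.11), and Hexa with scaling to the median (-0.20). With 1 array left out, which assumes that the lone array varies like the other group, Gla ranged from 0.32 to 0.42 and Hexa from -0.40 to -0.34, with no call. Calls were gained by Psap at 0.44 with scaling to the median and at 0.28 with replicate 3 averaged with replicate 1, by Glb1 at -0.27 with normexp and quantile normalization and at -0.77 with no scaling, and by Glb1 (-0.37), Neu1 (0.21), Psap (0.28) and Npc2 (0.31) with every file as its own sample. Gusb turned to -0.15 with quantile normalization, to -0.12 and -0.14 with normexp before the 75th percentile or quantile normalization, and ranged from -0.010 to 0.096 with 1 array left out. With no scaling Gla was at -0.043, Gusb at -0.37, Neu1 at -0.22, Psap at -0.14 and Npc2 at -0.11. The cause of these shifts was not tested.

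Of all genes, 2537 were called higher and 1903 lower in the main setting. The genes lower were 1198 with scaling to the median, no filter left 1532 called (895 higher, 637 lower), every file as its own sample gave 7453 (4115 higher, 3338 lower), and no scaling gave 763 higher and 3281 lower. Higher calls were 57.1% of calls in the main setting, 72.7% with scaling to the median and 18.9% with no scaling. Leaving out 1 array gave 2253 to 3283 called, 1186 to 1977 higher and 1037 to 1306 lower. Without the 7 genes, the lysosomal lists gave 5 lower with scaling to the median, 8 higher and 2 lower with no filter, 22 lower with every file, 5 higher and 20 lower with no scaling, and 10 to 13 higher and 4 to 6 lower without 1 array. The replicate block, as a paired fit, called 4087 genes.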
